A study of Mus musculus with 12 samples.

Results

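The genes described here are 38 mouse genes whose transcription is known to be switched on by type I interferons. They were chosen by gene symbol from the 55573 genes of the count table, as RNA sensors, transcription factors, ubiquitin-like modifiers, antiviral effectors and induced genes of less defined function. Of the 38, 37 had enough counts to be tested for differential expression, and Ifit1bl1 did not, with 1 to 12 counts per library. RNA came from cultured adipocytes grown out of subcutaneous fat. Their precursors were taken from its stromal vascular fraction (SVF), which holds everything in a digested fat pad apart from the mature fat cells. The donor mice, on a C57BL/6 background, carried on both chromosomes either wild-type PPARγ (WT), the T166A allele (TA), in which alanine replaces a threonine of PPARγ that can be phosphorylated, or the T166D allele (TD), in which the acidic residue aspartate replaces it. Per the study's methods, both alleles were made by CRISPR-Cas9 in zygotes and are present in every cell of the mouse, and WT littermates from heterozygous crosses served as controls. All cultures received the same adipogenic medium for 4 days, with 850 nM insulin, 1 nM triiodothyronine, IBMX, dexamethasone and indomethacin. They were then kept with insulin and triiodothyronine alone and harvested on day 8, and no interferon or virus is named among the additions. Each genotype had 4 libraries. The age of the mice, the number of founder animals, and whether replicates came from separate mice or cultures are not given in the sources used here, so p-values measure the spread between these libraries, which may be technical.

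Type I interferons are secreted when a cell senses foreign or misplaced nucleic acid. They bind the receptor pair IFNAR1 and IFNAR2, whose kinases JAK1 and TYK2 phosphorylate STAT proteins. STAT2 acts with IRF9 in ISGF3, a complex that binds a DNA element called ISRE upstream of its target genes. The induced products detect viral RNA, degrade or modify it, trap virus particles, or feed back on the pathway itself. Fat cells and their precursors carry this pathway like most cells of the body, and low levels of these transcripts are found without infection.

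Library totals ran from 16553324 to 20324286 counts, with the WT libraries the deepest. Adipocyte markers were present at high levels in all genotypes, with summed levels of 23520 to 26080 CPM (counts per 1000000 counts of the normalized library) in WT, 21940 to 28730 in TA and 16150 to 18280 in TD. Of these markers 9 of 10 fell in TD relative to WT (edgeR, adjusted p under 0.05), against 14.2% of all genes tested. Macrophage, endothelial and skeletal muscle transcripts were also found in the cultures, and their values stand with the results below. Among the TD libraries, replicates 3 and 4 stood apart from replicates 1 and 2 in most of the 37 genes. Summed skeletal muscle markers exceeded 100 CPM in these 2 libraries alone. By that limit, set after seeing the data, each comparison with TD is given with and without them. Counts of a bulk culture cannot tell fewer cells of a type from less RNA per cell.

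To show what the genes share in sequence, promoter windows from 250 bases before to 50 bases after the start site were read from RefSeq on GRCm38.p6. A window was found for 28 of the 38 genes, 34 windows in all. An ISRE match, that is GAAA, 2 bases of any kind and GAAA again, searched on both strands as all motifs here, was found in 16 of the 28 genes (57.1%), against 3.99% of the 27025 genes with a window. A GAS match, TTC and GAA set 3 bases apart, the palindromic element bound by STAT dimers, was found in 8 of 28 (28.6%) against 9.55% of all genes. A direct repeat of the PPAR type, AGGTCA, 1 base of any kind and AGGTCA again, was found in 0 of 28 and in 13 of the 27025. These exact letters are too rare over all genes for their absence from 28 to be read. The windows of Ifi27, Dhx58, Zbp1, Usp18, Oas2, Mx1, Mx2, Parp9, Parp14 and Rtp4 were not analysed here. A match is a description of the letters and not of binding.

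The 250 bases before the start site are printed for 5 genes that hold ISRE matches before the start and whose values are given library by library. Capitals mark the ISRE matches, and the strand is that of the gene. Isg15 lies on the minus strand at chr4:156200819-156201068, Ifit1 on the plus strand at chr19:34640639-34640888, Ifit3 on the plus strand at chr19:34583279-34583528, Bst2 on the minus strand at chr8:71537473-71537722 and Trim30a on the minus strand at chr7:104465194-104465443.
Isg15: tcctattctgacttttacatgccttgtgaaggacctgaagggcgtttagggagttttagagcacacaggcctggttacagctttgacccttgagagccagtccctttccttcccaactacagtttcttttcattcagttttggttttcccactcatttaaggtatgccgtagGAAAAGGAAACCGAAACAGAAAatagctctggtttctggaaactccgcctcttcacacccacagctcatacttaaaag
Ifit1: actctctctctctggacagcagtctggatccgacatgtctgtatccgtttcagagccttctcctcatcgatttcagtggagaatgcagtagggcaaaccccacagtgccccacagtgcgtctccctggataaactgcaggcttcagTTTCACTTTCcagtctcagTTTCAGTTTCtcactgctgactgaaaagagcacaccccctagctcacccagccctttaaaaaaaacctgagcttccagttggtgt
Ifit3: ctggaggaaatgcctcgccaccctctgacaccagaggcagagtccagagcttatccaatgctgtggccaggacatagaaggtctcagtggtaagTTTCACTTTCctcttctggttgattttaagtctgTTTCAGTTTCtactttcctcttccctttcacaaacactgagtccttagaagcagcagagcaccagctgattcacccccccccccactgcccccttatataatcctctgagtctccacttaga
Bst2: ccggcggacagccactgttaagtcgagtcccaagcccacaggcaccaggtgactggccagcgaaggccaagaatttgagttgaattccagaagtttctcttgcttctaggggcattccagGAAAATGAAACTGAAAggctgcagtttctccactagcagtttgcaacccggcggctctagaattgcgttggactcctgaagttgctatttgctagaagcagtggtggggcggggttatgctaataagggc
Trim30a: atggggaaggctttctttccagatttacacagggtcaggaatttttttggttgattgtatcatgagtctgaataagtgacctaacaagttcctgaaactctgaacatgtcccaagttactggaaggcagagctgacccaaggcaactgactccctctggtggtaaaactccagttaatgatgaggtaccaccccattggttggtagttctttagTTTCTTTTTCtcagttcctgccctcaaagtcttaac
In Isg15, 3 overlapping matches began 78, 72 and 66 bases before the start, which makes 1 run of repeated GAAA. The Ifit1 matches began 104 and 85 bases before the start and those of Ifit3 156 and 122 bases before it, on the minus strand in both genes. Bst2 carried overlapping matches at 130 and 124 bases before its start, and Trim30a a single match at 36 bases. The other genes with a match before the start were Stat2 at 222 bases, Rsad2 at 120, Ifit1bl1 at 104, Oas3 at 75, Ifit3b at 188 and 154, Oas1a at 20 and 14 and Oas1g at 18 and 12. In Ddx58, Eif2ak2, Ifih1 and Ifitm3 the matches began after the start site. Irf7, Irf9, Ifit2, Oasl1, Oasl2, Cmpk2, Samhd1, Isg20, Dtx3l, Ifi35, Ifi44 and Xaf1 had no ISRE match in their windows.

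**Figure D1:**
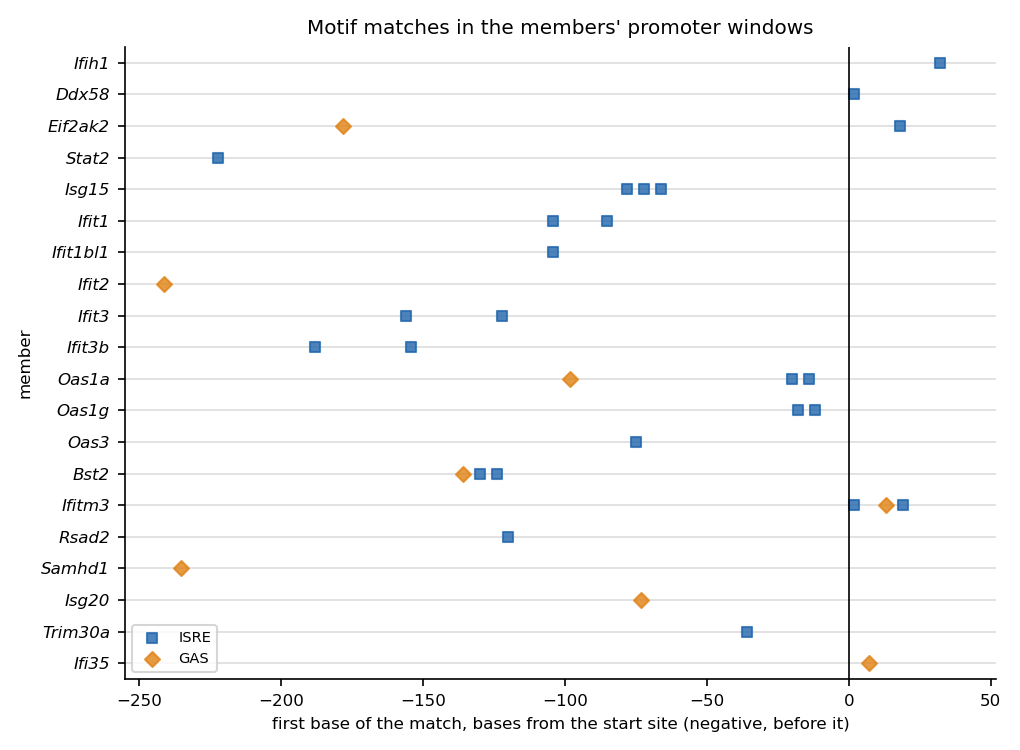
Positions of ISRE (squares) and GAS (diamonds) matches in the first promoter window of each gene that had a match, in bases from the start site, with negative values before it. Isg15 shows 3 matches close together, at 78, 72 and 66 bases before the start, while those of Ifitm3 lie 2 and 19 bases after it.

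The 15 tested genes with an ISRE match had a median log2 fold change of 0.81 in TA relative to WT (7 called higher, against 6.72% of all genes tested) and of 0.47 in TD relative to WT (6 called higher, against 15.1%). For the 12 without a match the medians were 0.57 (4 higher, 1 lower) and 0.40 (5 higher). These medians describe the genes with a window, and the difference between them was not tested.

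The genes ranged widely in level. Per kilobase of annotated exon, Ifitm3 was highest with 332, 511 and 501 CPM in WT, TA and TD, followed by Ifi27 with 236, 236 and 169 and by Bst2 with 99.4, 174 and 114. The median gene had 6.55, 11.4 and 10.5 CPM per kilobase. Oas1g, at 1.11, was the lowest of the tested genes in WT. Summed over the 37 genes, levels were 2006, 1569, 1610 and 2129 CPM in the WT libraries, 2709, 2993, 2468 and 2831 CPM in TA, and 1870, 1842, 2801 and 3043 CPM in TD. Every TA library was above every WT library, whereas TD replicates 1 and 2 fell within the WT range and replicates 3 and 4 above it. The mean log2 CPM over the genes, centred on the 12-library mean of each gene, was −0.43 ± 0.30 in WT, 0.35 ± 0.17 in TA and 0.084 ± 0.53 in TD (SD, n = 4).

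**Figure D2:**
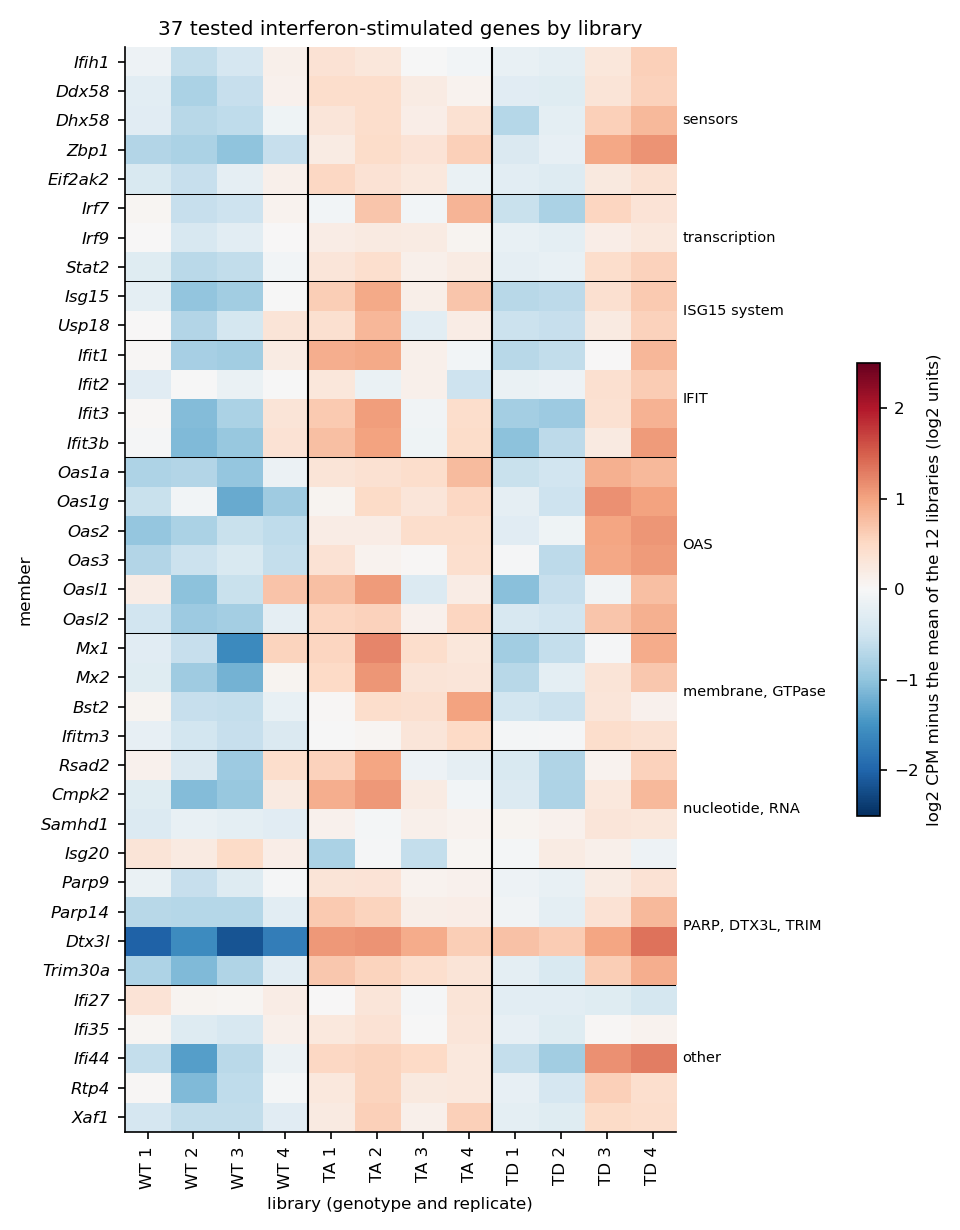
Log2 CPM of each of the 37 tested genes (rows, grouped by role) in each of the 12 libraries (columns), relative to the gene's mean over the libraries, with red above and blue below. WT replicates 1, 2 and 3 and TD replicates 1 and 2 are blue in most rows, and WT replicate 4 is mixed. The TA libraries and TD replicates 3 and 4 are red in most, and Dtx3l is blue in all 4 WT libraries and red in the other 8.

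To ask whether the unphosphorylatable PPARγ changed these transcripts, TA was compared with WT. Of the 37 genes, 16 were higher in TA and 1 was lower at an adjusted p under 0.05 (edgeR, Benjamini-Hochberg over all genes tested), against 6.72% of all 15117 genes tested called higher and 4.41% called lower. The 16 were Ddx58, Zbp1, Stat2, Isg15, Oas1a, Oas2, Oasl2, Mx2, Bst2, Ifitm3, Samhd1, Parp9, Parp14, Dtx3l, Trim30a and Xaf1, with fold changes from 1.27 to 7.08, and the lower one was Isg20. The fitted change was above 0 for 36 of 37, and its median was 0.80 on the log2 scale, against −0.0056 over all genes. In 20 genes every TA library exceeded every WT library, which held for 7.71% of all genes, and in Isg20 every TA library was below every WT library, as in 5.85% of all genes. The 9 calls of Zbp1, Oas2, Oasl2, Ifitm3, Samhd1, Parp14, Dtx3l, Trim30a and Xaf1 held with any single library left out. The other 8 did not: without WT replicate 3 all 8 were lost and 9 genes were called, and some of them were lost without WT replicate 2 (Ddx58, Isg15, Mx2, Bst2, Parp9), WT replicate 1 (Ddx58, Oas1a, Isg20), TA replicate 1 (Ddx58, Isg20, Parp9), TA replicate 2 (Ddx58, Mx2), TA replicate 3 (Ddx58, Isg20), TA replicate 4 (Ddx58, Oas1a, Bst2) or TD replicate 3 (Ddx58), with highest adjusted p-values from 0.0535 for Stat2 to 0.118 for Ddx58. Over all genes, 1343 of 15369 were called without WT replicate 3. With no filter on low counts 35 genes were called, against 2314 of all 29115 genes tested. When a log2 fold change above 1 was also required 8 were called, against 424 of all 15117.

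The acidic substitution was compared with WT in the same fit. In TD, 15 of the 37 genes were higher and 1 was lower, against 15.1% of all genes called higher and 14.2% called lower. The 15 were Zbp1, Stat2, Oas1a, Oas1g, Oas2, Oas3, Oasl2, Ifitm3, Samhd1, Parp9, Parp14, Dtx3l, Trim30a, Ifi44 and Xaf1, with fold changes from 1.27 to 7.10, and Ifi27 was the lower one. The median log2 fold change was 0.47, against 0.011 over all genes. Every TD library exceeded every WT library in 6 genes (Zbp1, Oas2, Ifitm3, Samhd1, Parp14 and Dtx3l), a pattern found in 15.8% of all genes, and all TD libraries were below all WT libraries for Ifi27, as in 16.4% of all genes. Without TD replicate 3, or without TD replicate 4, 9 genes were called, and Stat2, Oas1a, Oas1g, Oasl2, Parp9, Ifi44 and Xaf1 were lost, with highest adjusted p-values from 0.0587 for Xaf1 to 0.188 for Parp9. Some of these were also lost without WT replicate 3 (Oas1a, Oas1g, Parp9, Ifi44), WT replicate 1 (Oas1a, Parp9, Ifi44), WT replicate 2 (Parp9, Ifi44), TA replicate 1 or TA replicate 4 (Parp9). With both TD replicates 3 and 4 left out, an alternative chosen after seeing the data, 4 genes were called higher (Zbp1, Oas2, Samhd1 and Dtx3l) and 1 lower (Ifi27), against 5.34% and 4.33% of the 15673 genes tested in that fit, and the median was −0.0043. As these libraries were also the higher TD libraries for most of the 37 genes, lower TD values follow in part from this choice. Over all genes, 3366 of 15344 were called without TD replicate 3 and 3121 of 15364 without TD replicate 4. With no filter on low counts 28 genes were called, against 4526 of all 29115 genes tested.

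TD was also compared with TA directly. Ifi27 was the single gene called, lower in TD, and 0 were called higher, against 9.37% of all genes called lower and 7.33% called higher. With edgeR 5 of 37 had an unadjusted p under 0.05, and DESeq2 called 1. The median log2 fold change was −0.17, against 0.023 over all genes. The TD libraries exceeded all TA libraries in 0 of the 37 genes, against 9.32% of all genes, and were all below them in 1, Ifi27, against 10.6%. The comparisons with WT share the WT libraries. With both TD replicates 3 and 4 left out, again a choice made after seeing the data, 12 of 38 genes were called lower, against 2.86% of the 15673 genes tested in that fit, and the median was −0.68. Those libraries were the higher TD libraries in 35 of the 37 genes, so lower TD values follow in part from leaving them out, and nothing further is read from this count. With no filter on low counts 15 genes were called, against 3097 of all 29115 genes tested. The call of Ifi27 held without any single library. With both TD replicates 3 and 4 left out Ifi27 was not called (edgeR, adjusted p = 0.068).

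**Figure D3:**
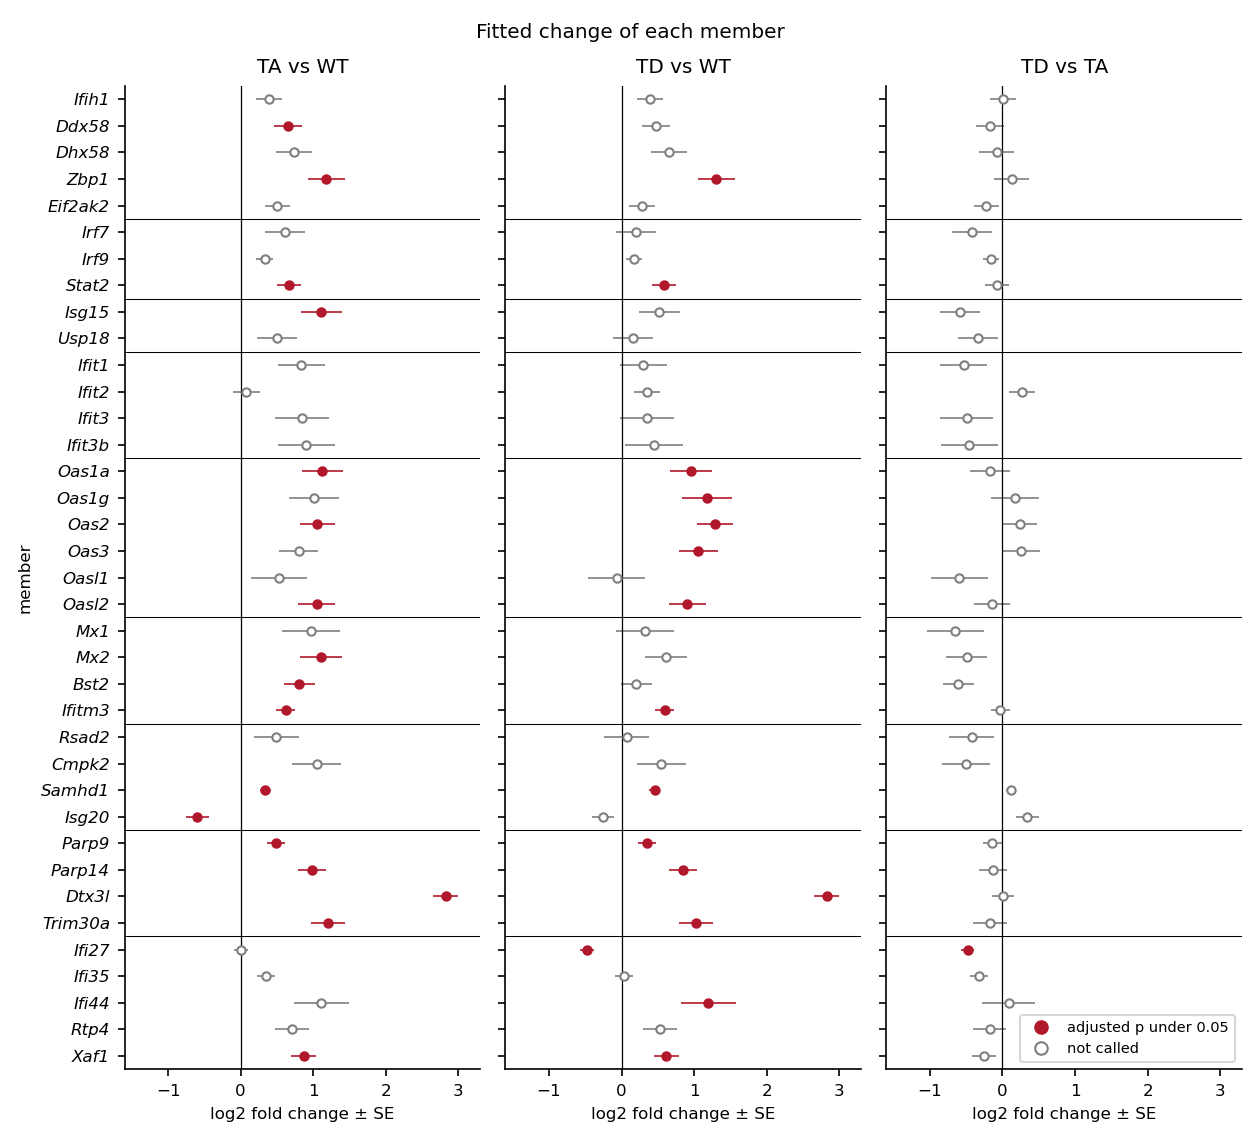
Fitted log2 fold change of each of the 37 genes with its standard error (horizontal line) for TA relative to WT, TD relative to WT and TD relative to TA. Filled points have an adjusted p under 0.05: 17, 16 and 1 genes in the 3 panels, with Dtx3l far to the right of the others at 2.82 and 2.83 in the comparisons with WT.

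Of the 5 sensors, which recognise viral or misplaced nucleic acid, Ddx58 and Zbp1 were higher in TA than in WT and Zbp1 alone was called in TD. Ddx58 encodes RIG-I, a sensor of RNA ends, on chromosome 4. Its levels were 59.7, 41.5, 48.3 and 77.8 CPM in WT, 98.2, 98.2, 83.1 and 76.96 CPM in TA, and 58.99, 58.5, 90.5 and 108 CPM in TD. TA replicate 4 was just below WT replicate 4, TD replicates 1 and 2 were within the WT range, and the log2 fold change was 0.65 ± 0.20, adjusted p = 0.0424 in TA and 0.47 ± 0.20, adjusted p = 0.0809 in TD (± SE here and below). Zbp1 senses Z-form nucleic acid and can trigger cell death. Zbp1 had 18.2, 17.3, 15.01 and 20.2 CPM in WT, 34.7, 41.4, 38.6 and 45.6 CPM in TA, and 23.6, 26.4, 59.2 and 65.7 CPM in TD. All mutant libraries exceeded the highest WT library, TD replicates 3 and 4 were the highest of the 12, and the log2 fold change was 1.18 ± 0.26, adjusted p = 0.00672 in TA and 1.31 ± 0.26, adjusted p = 0.00145 in TD. Eif2ak2, the RNA-activated kinase PKR that halts translation, had 54.4, 47.8, 60.7 and 77.98 CPM in WT, 102, 91.2, 85.4 and 63.6 CPM in TA, and 59.4, 56.97, 84.5 and 91.9 CPM in TD. TA replicate 4 and TD replicates 1 and 2 were below WT replicate 4, and neither the change in TA (0.51 ± 0.17, adjusted p = 0.0729) nor that in TD (0.28 ± 0.17, adjusted p = 0.243) passed the test. Ifih1 (MDA5) had means of 43.5 ± 10.04, 56.8 ± 8.21 and 57.1 ± 16.3 CPM in WT, TA and TD (SD, n = 4 here and below) and Dhx58 (LGP2), its regulatory relative, 19.1 ± 3.85, 31.8 ± 2.59 and 30.1 ± 13.8 CPM. Neither was called, although the TA and WT libraries of Dhx58 did not overlap.

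Stat2, Irf9 and Irf7 encode the transcription factors of the pathway. Stat2, on chromosome 10, had 106, 82.2, 86.2 and 125 CPM in WT, 162, 176, 144 and 152 CPM in TA, and 113, 115, 177 and 195 CPM in TD. It was 1.59-fold higher in TA, with no overlap between libraries (0.67 ± 0.17, adjusted p = 0.0152), and 1.504-fold higher in TD (0.59 ± 0.17, adjusted p = 0.0141), where TD replicates 1 and 2 lay within the WT range. Irf7, the factor that amplifies interferon production, had 86.9, 56.3, 58.2 and 89.1 CPM in WT, 79.8, 135, 79.3 and 150.3 CPM in TA, and 56.6, 48.5, 122 and 106 CPM in TD. Its TA libraries fell into a pair within the WT range and a pair above it, and neither comparison passed the test (0.61 ± 0.27, adjusted p = 0.171 in TA and 0.20 ± 0.27, adjusted p = 0.632 in TD). Irf9, the DNA-binding subunit of ISGF3, had 45.1 ± 6.34, 56.7 ± 2.801 and 50.8 ± 8.72 CPM, and was called in neither comparison. Irf7 shares 45 exonic bases with Phrf1 on the opposite strand and Irf9 shares 123 with Rnf31 on the same strand, so part of their counts could belong to the neighbour.

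Isg15 is a ubiquitin-like protein that is attached to other proteins, and Usp18 removes it and dampens the interferon receptor. Isg15 had 30.8, 18.3, 19.8 and 36 CPM in WT, 55.98, 70.4, 40.3 and 59.2 CPM in TA, and 22.4, 22.96, 48.1 and 56.9 CPM in TD. All TA libraries were above all WT libraries, by 2.16-fold in the fit (1.11 ± 0.28, adjusted p = 0.0174). TD replicates 1 and 2 were within the WT range and replicates 3 and 4 above it, and TD missed the threshold (0.52 ± 0.28, adjusted p = 0.181). Usp18 had 27.6, 16.4, 20.02 and 34.4 CPM in WT, 36.2, 48.95, 22.7 and 31.2 CPM in TA, and 18.7, 18.3, 32.2 and 40.9 CPM in TD. Its groups overlapped in every comparison, with 0.50 ± 0.27, adjusted p = 0.275 in TA and 0.16 ± 0.27, adjusted p = 0.698 in TD.

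The IFIT proteins bind viral RNA ends and stop their translation. None of the 4 tested IFIT genes, which cluster on chromosome 19, was called in TA or TD by edgeR or by DESeq2, with 3 and 0 genes at an unadjusted p under 0.05. Ifit1 had 58.4, 32.2, 31.5 and 66.5 CPM in WT, 108, 111, 62.8 and 54.7 CPM in TA, and 35.2, 37.4, 57.6 and 102 CPM in TD. Ifit3 had 66.2, 30.8, 37.6 and 81.1 CPM in WT, 103, 135, 60.9 and 88.1 CPM in TA, and 35.9, 34.5, 85.3 and 119 CPM in TD. In both genes WT replicates 1 and 4 were above replicates 2 and 3, TA overlapped with WT, and TD replicates 3 and 4 were above TD replicates 1 and 2. The log2 fold change of Ifit1 in TA was 0.84 ± 0.33, adjusted p = 0.115 and that of Ifit3 was 0.84 ± 0.37, adjusted p = 0.16, with standard errors among the largest of the set. Ifit2 had 20.1 ± 1.896, 21.3 ± 5.03 and 25.6 ± 7.02 CPM. Ifit3b had 11.3 ± 5.47, 21 ± 6.53 and 15.3 ± 10.2 CPM, but 51.2% of the 50-base words of Ifit3 also occur in other genes, chiefly in Ifit3b, so reads could be split between them.

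The OAS enzymes make short adenylate chains that activate RNase L, a nuclease that degrades RNA. Of these 6 genes on chromosome 5, 3 were called higher in TA and 5 in TD, against 6.72% and 15.1% of all genes. Every TA library was above every WT library in 5 of the 6, against 7.71% of all genes. For TD this held in 1 of the 6, against 15.8%. Oas2 had 15.7, 17.8, 20.8 and 19.6 CPM in WT, 34.98, 34.9, 41.7 and 41.9 CPM in TA, and 25.1, 28.5, 60.7 and 66.4 CPM in TD. Its mutant libraries all exceeded the highest WT library, at 2.08-fold in TA (1.05 ± 0.24, adjusted p = 0.00976) and 2.44-fold in TD (1.29 ± 0.24, adjusted p = 0.00108), and TD replicates 3 and 4 were over 2 times TD replicates 1 and 2. Oasl2, an OAS-like protein, had 46.4, 34.6, 35.9 and 55.4 CPM in WT, 94.8, 96.6, 69.6 and 94.7 CPM in TA, and 49.1, 46.6, 106 and 121 CPM in TD. All TA libraries were above WT (1.05 ± 0.26, adjusted p = 0.0138), with TA replicate 3 the lowest of them, while TD replicates 1 and 2 lay within the WT range (0.90 ± 0.26, adjusted p = 0.0143). Oas3 had 12.9 ± 1.31, 22.5 ± 3.08 and 26.99 ± 13.8 CPM and was called in TD (1.06 ± 0.27, adjusted p = 0.0079) but not in TA (0.80 ± 0.27, adjusted p = 0.0696). Oas1a had 9.67 ± 2.65, 21.1 ± 3.298 and 18.7 ± 9.61 CPM and was called in both mutants (adjusted p = 0.0175 in TA and 0.0197 in TD). Oas1g had 2.599 ± 0.964, 5.24 ± 0.736 and 5.91 ± 3.23 CPM and was called in TD (adjusted p = 0.0165) but not in TA (adjusted p = 0.0723). Oas1a shares 57.6% of its 50-base words with Oas1g, so the split between them is uncertain. Oasl1, known as a brake on Irf7 translation, had 9.08 ± 4.75, 13.1 ± 5.37 and 8.65 ± 4.87 CPM and was not called.

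Ifitm3 and Bst2 act at membranes, and Mx1 and Mx2 are dynamin-like GTPases that trap viral cores. Ifitm3 blocks fusion of virus with endosomes. It had 257, 214, 199 and 231 CPM in WT, 295, 306, 364 and 419 CPM in TA, and 285, 289, 402 and 382 CPM in TD. All 8 mutant libraries exceeded the highest WT library, at 1.54-fold in TA (0.62 ± 0.13, adjusted p = 0.00552) and 1.51-fold in TD (0.59 ± 0.13, adjusted p = 0.00324). Bst2, or tetherin, holds budding virus at the cell surface. It had 115, 74.3, 72.7 and 96.8 CPM in WT, 113, 149, 145 and 222 CPM in TA, and 80.6, 76.4, 137 and 119 CPM in TD. TA replicate 1 overlapped with WT replicate 1, and the change in TA was 0.81 ± 0.21, adjusted p = 0.0195. In TD the change was 0.20 ± 0.21, adjusted p = 0.507, and the difference between TD and TA was −0.61 ± 0.21, adjusted p = 0.0572. Mx2 was higher in TA (19.9 ± 5.79 against 9.29 ± 3.63 CPM in WT, 1.10 ± 0.29, adjusted p = 0.0211) and not called in TD (14.1 ± 5.79 CPM), and the annotation lists it as a polymorphic pseudogene. Mx1 had 6.198 ± 3.64, 12.1 ± 3.88 and 7.73 ± 4.71 CPM and was not called.

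The enzymes of nucleotides and RNA moved in different directions. Samhd1 cleaves deoxynucleotides and so starves viral DNA synthesis. It had 122, 136, 131 and 127 CPM in WT, 168, 150.4, 170.3 and 165 CPM in TA, and 162, 168, 191 and 188 CPM in TD. The libraries of each genotype lay close together, and both mutants were above all WT libraries, at 1.27-fold in TA (0.34 ± 0.073, adjusted p = 0.00649) and 1.37-fold in TD (0.46 ± 0.073, adjusted p = 0.000376). Isg20, an exonuclease that degrades single-stranded RNA, went the other way. It had 23.7, 22.1, 26.3 and 21.1 CPM in WT, 10.8, 18.6, 12.4 and 19.6 CPM in TA, and 18.3, 21.7, 20.5 and 17.4 CPM in TD. Every TA library was below every WT library (−0.60 ± 0.16, adjusted p = 0.0212), with TA replicates 1 and 3 the lowest, and the TD libraries overlapped with both (−0.26 ± 0.16, adjusted p = 0.233). Rsad2, or viperin, makes a chain-terminating nucleotide from CTP. It had 24.02, 17.3, 11.8 and 30.1 CPM in WT, 33.3, 44.2, 20.3 and 19.1 CPM in TA, and 17.2, 13.2, 23.8 and 33.2 CPM in TD. Its groups overlapped, and neither change passed the test (0.49 ± 0.31, adjusted p = 0.354 in TA and 0.071 ± 0.31, adjusted p = 0.893 in TD). Cmpk2, a mitochondrial nucleotide kinase next to Rsad2 on chromosome 12, had 10.3 ± 4.504, 21.2 ± 7.78 and 14.99 ± 7.14 CPM (adjusted p = 0.0567 in TA and 0.245 in TD).

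Parp9, Parp14, Dtx3l and Trim30a were called higher in both mutants. Parp9 and Dtx3l act as a pair, an ADP-ribosylating protein and a ubiquitin ligase, and their genes overlap at their starts on chromosome 16, with Parp14 close by. Dtx3l lies at 35926511 to 35939151 on the minus strand and Parp9 at 35938470 to 35972605 on the plus strand (GRCm38, GENCODE M21). Dtx3l had 7.004, 9.68, 6.34 and 8.604 CPM in WT, 61.7, 62.9, 55.2 and 44.5 CPM in TA, and 48.3, 45.2, 57.5 and 73.8 CPM in TD. The lowest mutant library was over 4 times the highest WT library, and Dtx3l had the largest change of the 37 genes, 7.08-fold in TA (2.82 ± 0.17, adjusted p = 3.02e-08) and 7.098-fold in TD (2.83 ± 0.17, adjusted p = 1.77e-07). The TD libraries overlapped with the TA libraries. Parp9 had 69.3, 52.4, 62.4 and 76.2 CPM in WT, 97.4, 99.7, 83.5 and 84.2 CPM in TA, and 71.3, 68.9, 90.7 and 100.4 CPM in TD. It rose 1.401-fold in TA (0.49 ± 0.13, adjusted p = 0.0199) and 1.27-fold in TD (0.35 ± 0.13, adjusted p = 0.0492), with TD replicates 1 and 2 inside the WT range. Dtx3l and Parp9 overlap by 458 exonic bases on opposite strands, 8% of the Dtx3l exons, and the strand setting of the counting is not given in the sources used here, so reads in that stretch cannot be assigned. Parp14, a mono-ADP-ribosyltransferase, had 56.5, 55.7, 55.8 and 75.95 CPM in WT, 144, 134, 101 and 102 CPM in TA, and 85.2, 77.1, 117 and 160.3 CPM in TD. All mutant libraries were above WT, the highest WT library being replicate 4 (0.98 ± 0.19, adjusted p = 0.0032 in TA and 0.85 ± 0.19, adjusted p = 0.00364 in TD). Trim30a, a TRIM protein, had 23.5, 18.4, 23.7 and 32.99 CPM in WT, 63.9, 58.7, 53.4 and 50.1 CPM in TA, and 33.5, 30.7, 61.5 and 75.2 CPM in TD. The TA libraries were all above WT (1.20 ± 0.24, adjusted p = 0.00338), and in TD replicate 2 overlapped with WT replicate 4 (1.03 ± 0.24, adjusted p = 0.00412).

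**Figure D4:**
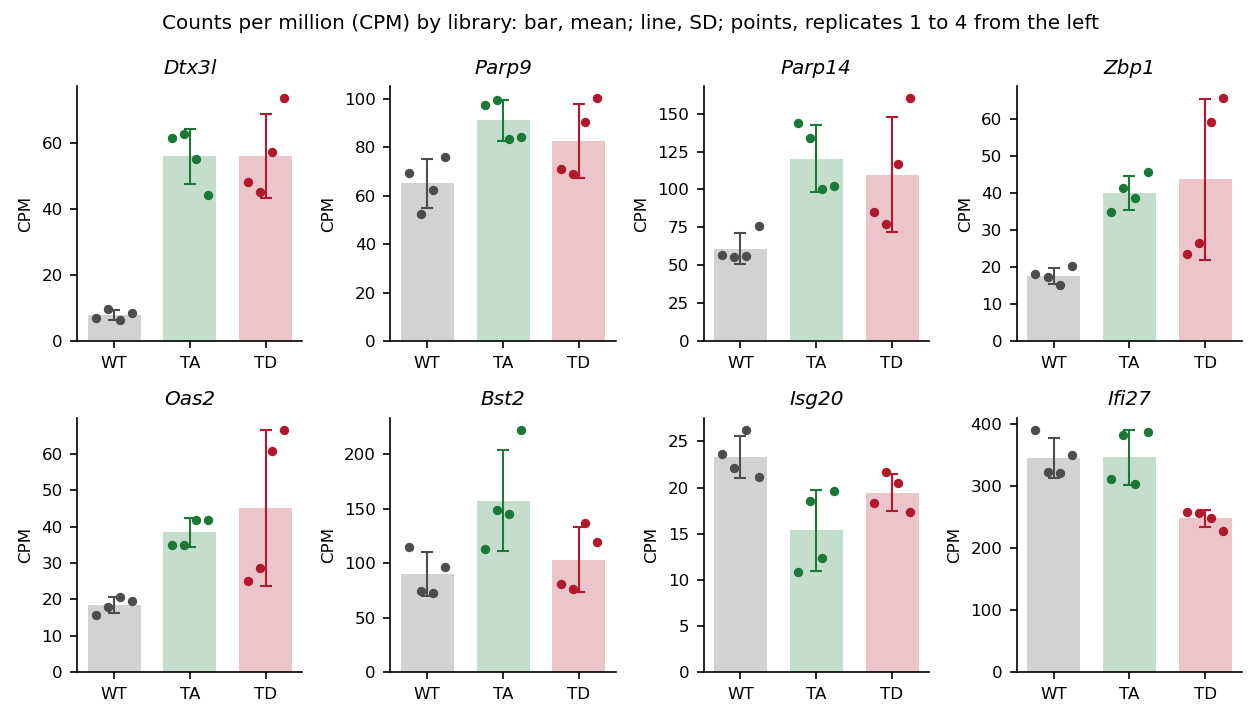
CPM of 8 genes in each library of WT, TA and TD, with bars for the mean, lines for the SD and points for replicates 1 to 4 from left to right. Dtx3l rises from a WT mean of 7.91 CPM to 56.1 and 56.2 CPM in TA and TD while Parp9 moves from 65.1 to 91.2 and 82.8 CPM, TD replicates 3 and 4 sit apart in Zbp1 and Oas2, Isg20 is lowest in TA, and Ifi27 is lowest in TD.

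The remaining genes are induced by interferon but have less settled roles. Ifi27, a small hydrophobic protein of the mitochondrial membrane, had 391, 323, 321 and 350.0 CPM in WT, 313, 383, 304 and 388 CPM in TA, and 259, 257, 249 and 228 CPM in TD. It was about equal in WT and TA (0.0016 ± 0.094, adjusted p = 0.995), and every TD library was below every library of the other genotypes (−0.48 ± 0.094, adjusted p = 0.00142 against WT and −0.48 ± 0.094, adjusted p = 0.0027 against TA). Rtp4, a chaperone of cell-surface receptors, had 56.6, 25.5, 35.5 and 53.7 CPM in WT, 66.3, 81.4, 65.5 and 66.3 CPM in TA, and 48.1, 41.5, 83.7 and 73.9 CPM in TD. All TA libraries were above WT, but neither change passed the threshold (0.71 ± 0.23, adjusted p = 0.0574 in TA and 0.53 ± 0.23, adjusted p = 0.0931 in TD), and Rtp4 shares 296 exonic bases with Gm45338. Xaf1, which binds the apoptosis inhibitor XIAP, had 17.5 ± 1.995, 32.02 ± 5.38 and 26.9 ± 7.77 CPM and was called in TA (0.87 ± 0.17, adjusted p = 0.00348) and in TD (0.62 ± 0.17, adjusted p = 0.0135). Ifi44 had 9.73 ± 3.23, 20.99 ± 1.89 and 22.3 ± 15.2 CPM and was called in TD (adjusted p = 0.0264) but not in TA (adjusted p = 0.0729). Its SD was the largest relative to its mean in TD, and the TD libraries ranged from 8.30 to 36.9 CPM and overlapped with WT. Every TA library of Ifi44 was above every WT library. Ifi35 had 45.4 ± 8.23, 57.99 ± 6.43 and 46.5 ± 5.86 CPM and was not called.

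Upstream of these genes, interferon transcripts were at the limit of detection. Of 21 interferon ligand genes, 18 had no count in any library, and a count of 0 allows up to 3 counts, or 0.148 to 0.181 CPM at these depths (counting error only). Ifnz had 3 counts in WT replicate 1 and 1 each in WT replicate 4 and TD replicate 1, Ifnab had 5 in WT replicate 3, and Ifna2 had 1 in TD replicate 3. Differences in ligand expression were not detectable at this depth.

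Of 9 tested genes of the receptors and their kinases, 1 was lower in TA and 3 were higher in TD than in WT, or 11.1% and 33.3%. Of all genes, 4.41% were called lower in TA and 15.1% higher in TD, and 11.1% and 29.2% in either direction. Ifnar1, a subunit of the type I receptor, had 67.8 ± 0.664, 68.7 ± 2.44 and 78.2 ± 4.38 CPM (0.21 ± 0.063, adjusted p = 0.0211 in TD relative to WT). Its partner Ifnar2 had 60.9 ± 2.53, 66.8 ± 6.06 and 70.8 ± 6.04 CPM and was not called. Jak1 was higher in TD (0.24 ± 0.077, adjusted p = 0.0261), and Tyk2 was higher in TD than in TA (0.36 ± 0.11, adjusted p = 0.037). Of the type II receptor subunits, Ifngr1 was lower in TA (−0.24 ± 0.075, adjusted p = 0.0484) and Ifngr2 higher in TD (0.40 ± 0.10, adjusted p = 0.00736). Jak2 was not called, Il10rb, shared by the type III receptor, was higher in TD than in TA (0.40 ± 0.10, adjusted p = 0.0148), and Ifnlr1 had at most 6 counts per library and was not tested.

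Of 17 other genes that sense nucleic acid or induce interferon, 2 were higher in TA, and 4 were higher and 1 lower in TD. Over all genes tested, 6.72% were called higher in TA, and 15.1% higher and 14.2% lower in TD, so shares of 11.8% called in TA and 29.4% in TD, against 11.1% and 29.2% of all genes, are near the background. Tlr3, an endosomal RNA receptor, was the largest rise in TA (0.75 ± 0.20, adjusted p = 0.0235). Tmem173, which encodes the DNA-sensing adaptor STING, was the largest in TD (1.08 ± 0.16, adjusted p = 0.000262), and Mavs, the adaptor of RIG-I, was the one that fell in TD (−0.26 ± 0.073, adjusted p = 0.0134). Among 11 tested negative regulators, 1 rose and 1 fell in TA, and 4 rose and 1 fell in TD, that is 18.2% and 45.5% called against the same 11.1% and 29.2%. Socs3, an inhibitor of JAK kinases, rose most in TD (0.87 ± 0.15, adjusted p = 0.0007 against WT and 0.89 ± 0.16, adjusted p = 0.00123 against TA). Adar, an RNA editor that masks self RNA, rose in TA (0.47 ± 0.15, adjusted p = 0.0494), Tnfaip3, a brake on NF-κB, fell in TA (−0.39 ± 0.077, adjusted p = 0.00315), and Rnaseh2c, a subunit of RNase H2, fell in TD (−0.33 ± 0.091, adjusted p = 0.0127).

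Genes outside the 38 that interferons also induce were called at shares of the same order. Of 55 tested, 27 were higher in TA and 31 in TD than in WT, that is 49.1% and 56.4%, against 6.72% and 15.1% of all genes. Their median log2 fold changes were 0.54 and 0.53. The largest rise in TA was that of Phf11b (1.57 ± 0.40, adjusted p = 0.0171) and the largest in TD that of Ifitm1 (1.85 ± 0.25, adjusted p = 0.000122). Between the mutants 3 were higher in TD, with Ifi209 the largest (0.97 ± 0.32, adjusted p = 0.0471), and 1 was lower, Ifi27l2a (−1.04 ± 0.15, adjusted p = 0.0003). Of all genes, 7.33% were called higher and 9.37% lower in that comparison. Of 14 tested GTPases, which are the GBP and IRG families, induced strongly by type II interferon, and the very large GTPase Gvin1, 11 were higher in TA and 7 in TD. Their shares, 78.6% and 50%, stand against the same 6.72% and 15.1% of all genes. Gbp4 rose most in both (2.43 ± 0.26, adjusted p = 1.43e-05 in TA and 2.60 ± 0.26, adjusted p = 2.92e-05 in TD), though from 0.549 ± 0.128 CPM in WT. Gbp11 was lower in TD than in TA (−0.60 ± 0.19, adjusted p = 0.0433).

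In TD, both replicates 3 and 4 exceeded both replicates 1 and 2 in 35 of the 37 genes, the exceptions being Isg20 and Ifi27, and this order was found in 22.5% of all genes tested. TD replicate 4 was the highest TD library in 27 genes and replicate 3 in 8. The median SD of log2 CPM among the TD libraries was 0.58 over the 37 genes against 0.14 over all genes. In WT the same medians were 0.32 and 0.17, and replicates 1 and 4 both exceeded replicates 2 and 3 in 27 of the 37 genes, an order noticed in the data and found in 22.0% of all genes tested. In TA they were 0.23 and 0.20, and replicate 2 was the highest TA library in 21 of the 37 genes, against 25.5% of all genes. In WT and TD most genes thus ranked the libraries alike, and in TA most shared the highest library. Counts over the genes are therefore not counts of independent measurements in any genotype.

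Transcripts of other cell types were set beside these values. Over all genes tested, 6.72% were called higher in TA and 15.1% in TD than in WT. Summed over 15 macrophage markers, levels were 470.0, 899.7, 565 and 302 CPM in WT, 298, 155, 663 and 352 CPM in TA, and 967, 796, 718 and 715 CPM in TD. The WT library highest in macrophage markers, replicate 2, had the lowest sum over the 37 genes, and TA replicate 2, the lowest of all 12 in macrophage markers, had the highest sum in TA. None of the 15 was called between TA and WT by edgeR (5 at an unadjusted p under 0.05), nor was any of the 14 with an adjusted p in DESeq2. In TD 2 were higher than in WT, a share of 13.3%, near the 15.1% of all genes. Of 10 endothelial markers, 5 were higher in TA and 9 in TD than in WT, with sums of 40.6 to 73.3 CPM in WT, 71.0 to 120.3 in TA and 131.0 to 166.7 in TD. Of 10 skeletal muscle markers, 7 were higher in TA and 10 in TD, with sums of 5.55 to 14.5 CPM in WT, 21.7 to 86.2 CPM in TA, and 21.1, 83.3, 324.8 and 178.2 CPM in TD replicates 1 to 4. The muscle sum was highest in the same TD libraries, 3 and 4, in which the 37 genes were high, while TD replicate 2, with 83.3 CPM, was among the lowest of the 12 for them. Within WT, muscle sums were higher in replicates 1 and 4 (14.5 and 11.8 CPM) than in replicates 2 and 3 (5.91 and 5.55 CPM), as were the sums over the 37 genes. TA replicate 2 was the highest TA library for both, while TA replicate 3, next in muscle sum with 42.8 CPM, had the lowest TA sum over the 37 genes. Of 10 tested markers of fibroblasts and preadipocytes, 6 were higher in TA and 8 in TD, with sums of 10200 to 13540 CPM in WT, 11460 to 20530 in TA and 17690 to 25860 in TD. Markers of lymphocytes and plasmacytoid dendritic cells had at most 12 counts, 0 of 11 could be tested, and Cd3d, Cd3g, Ms4a1, Ncr1 and Siglech had no count in any library. Neutrophil markers summed to 2.90 to 6.64 CPM, and of the 2 tested 1, S100a8, was higher in TA (1.32 ± 0.23, adjusted p = 0.0013). The mitochondrial share of counts was highest in WT (5.39 ± 0.40%), with 3.81 ± 0.81% for TA and 3.20 ± 0.35% for TD (SD, n = 4). Whether these cell types, mitochondrial RNA or library depth played a part in the changes of the 37 genes was not tested.

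**Figure D5:**
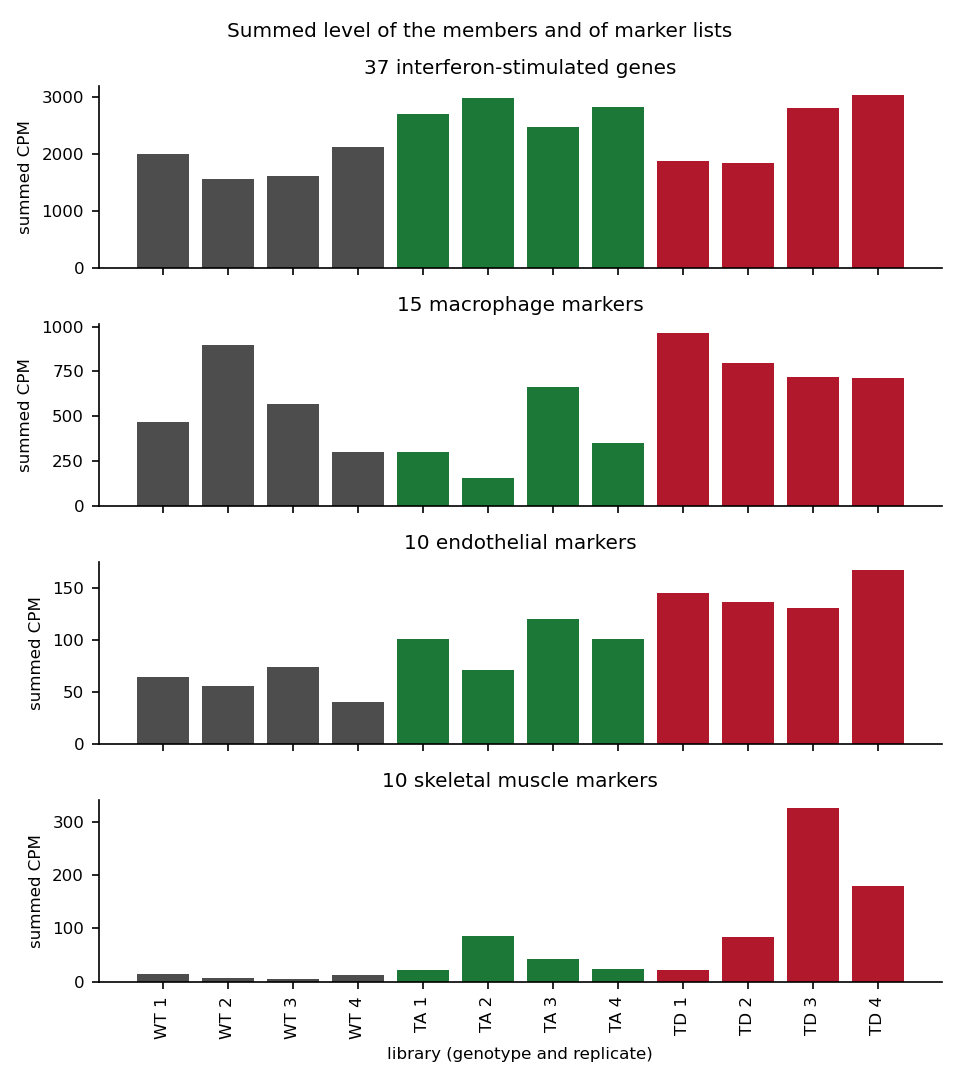
Summed CPM of the 37 genes and of macrophage, endothelial and skeletal muscle marker lists in each of the 12 libraries, colored by genotype (gray WT, green TA, red TD). TD replicates 3 and 4 are high for the 37 genes (2801 and 3043 CPM) and for muscle markers (324.8 and 178.2 CPM), whereas macrophage markers are highest in TD replicate 1 (967 CPM), a library low for the 37 genes (1870 CPM).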

How the data were processed

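RNA of the cultures was sequenced as 12 libraries on a NovaSeq. The submitters' notes name bcl2fastq 2.17.1.14, cutadapt 1.9.1, HISAT2 2.0.1 and HTSeq 0.6.1 and the GRCm38 build, and the strand setting is not given in the sources used here. The deposited values were raw read counts per gene, made by the authors with HTSeq, and both deposited forms held the same counts in 12 of 12 libraries. No library was a copy of another. Genes without enough counts were removed (filterByExpr, minimum count 10, minimum total 15), and the 15117 genes left were fitted once over all 12 libraries with edgeR 4.0.16 (TMM scaling, quasi-likelihood F-test, two-sided, Benjamini-Hochberg adjustment, threshold 0.05) in R 4.3.3. DESeq2 1.42.0 was an alternative, and the fitting code was tested on simulated data. SDs are over 4 libraries and SEs are of the fitted log2 fold change. Library-by-library values are given for the genes of each role with the highest mean CPM over the 12 libraries, and for those with the largest called rise or fall. The members and gene lists were chosen with earlier results of these data known. The values of 1 gene of the receptor and kinase list are not reported here.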

Additional observations from a re-analysis of the deposited data

Results flagged for a closer look

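In 3 of 111 sets of 4 libraries (each tested gene in each genotype), 1 library lay far enough from the other 3 to pass Dixon's 95% limit, which chance passes in about 1 of 20 sets. Parp14 in WT was 75.95 CPM in replicate 4, against 56.5 CPM in the next library. Oasl2 in TA was 69.63 CPM in replicate 3, against 94.68 CPM in the next lowest. Rtp4 in TA was 81.36 CPM in replicate 2, against 66.33 CPM in the next highest.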

How the results depend on the processing

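The direction of the median change and the number of genes called, 17 in TA and 16 in TD relative to WT and 1 between the mutants, were recomputed under other settings, and the cause of each shift was not tested. Requiring a log2 fold change above 1 left 8, 7 and 0 genes (with edgeR 5 of 37 had an unadjusted p under 0.05 between the mutants, and DESeq2 called 1), and no filter on low counts gave 35, 28 and 15. Over all genes these settings called 424, 795 and 362 of 15117, and 2314, 4526 and 3097 of 29115. Leaving out 1 library gave 9 to 23, 9 to 19 and 1 to 3 genes. Over all genes the ranges were 1160 to 1939, 3121 to 4705 and 1422 to 3526. Leaving out TD replicates 3 and 4, chosen after seeing the data, gave 5 genes in TD relative to WT, with a median of −0.0043, and 12 between the mutants, with a median of −0.68. Over all genes that fit called 1516 and 634 of 15673. Replicate numbers did not pair the libraries: the deviations of same-numbered libraries from their group means correlated at −0.237 to 0.196 (over 0.1 in 2 of 12 pairs), and 2 of 12 libraries correlated best with their own number. The fit with the replicate block called 20, 15 and 2 genes, against 1560, 4246 and 2488 of all 15117.
Some changes that were not called switched sign. Ifi27 in TA was −0.0072 with library totals, −0.0021 with DESeq2 size factors, −0.0098 without the filter and −0.0033 in DESeq2, and Oasl1 in TD was 0.0064 with library totals. With 1 library left out, Ifi27 in TA ranged from −0.066 to 0.062 and Ifit2 in TA from −0.050 to 0.20, and in TD relative to WT, where the fit to all libraries gave up to 0.45 (Ifit3b), the ranges were −0.045 to 0.39 for Irf7, −0.091 to 0.36 for Usp18, −0.12 to 0.51 for Ifit1, −0.052 to 0.61 for Ifit3, −0.072 to 0.76 for Ifit3b, −0.50 to 0.29 for Oasl1, −0.17 to 0.76 for Mx1, −0.20 to 0.30 for Rsad2 and −0.047 to 0.13 for Ifi35. Of the other single-gene values, 615 kept their direction and side of the threshold in TA, 51 passed it and 28 lost it, and in TD 632 kept them, 24 passed and 29 lost. Counts near the detection limit, as in the ligand genes, could not show a difference.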
